A study of Mus musculus with 12 samples.

Results

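The 10 genes described here are Nfe2l2, which encodes the transcription factor NRF2, and Hmox1, Nqo1, Gclc, Gclm, Txnrd1, Srxn1, Gsr, Slc7a11 and Gpx3, which serve heme breakdown, quinone reduction, glutathione and thioredoxin chemistry. They were taken by symbol from a table of 48321 genes, in which all 10 had a row, and 9 of them had enough reads to be tested. RNAseq was performed on immortalized murine brown adipocytes, derived with SV40 large T antigen from the brown fat preadipocytes of a wild-type newborn C57BL/6J mouse. The cells carried either the empty lentiviral vector (vector) or a truncated, soluble form of semaphorin 4B (tSema4B), with 1 stably transduced line for each construct, and were used on day 8 of differentiation. All cells were kept for 6 h in serum-free medium with albumin, either without a stimulus or with 2 µM norepinephrine (NE), the transmitter that activates brown adipocytes through adrenergic receptors. Each line was thus sequenced without and with NE, which gave 4 groups of 3 libraries. The labels call these technical replicates, so the p-values measure the spread between libraries of 1 line per construct and not between independent transductions. No source used here says that each group's 3 libraries were grown separately, so the comparisons with NE, too, may rest on 1 culture per group and a technical spread.

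The libraries held between 2000780 and 5409583 reads on genes, and the 3 vector NE libraries, with at least 4739777, were the deepest. Sema4b itself lay between 65472 and 124008 normalized read counts in the 6 vector libraries and between 208760 and 316850 in the 6 tSema4B libraries, so the labels and the levels of the introduced gene point the same way, although the vector libraries also held many Sema4b reads. Sema4b took 2.04% to 4.02% of the reads in vector and 7.01% to 10.2% in tSema4B libraries. The source of the Sema4b reads in vector libraries, carry-over between libraries included, was not tested, and carry-over would bear on the differences between the lines. The adipocyte markers differed between the lines. Their summed level over 8 genes was 40460 to 46200 in vector unstimulated, 6865 to 9607 in tSema4B unstimulated, 53690 to 65300 in vector NE and 10710 to 12090 in tSema4B NE libraries, and all 8 passed the test as lower in tSema4B in both states. With NE in vector cells 1 of the 8 passed as higher (Fabp4, log2 fold change 0.76) and 2 as lower (Plin1, -0.97, and Pparg, -0.71). The median over the 8 was 0.01 there. Fabp4, the most abundant of them, had means of 24034 and 40898 normalized counts in vector cells without and with NE. In tSema4B cells 2 of the 8 passed as higher with NE and 0 as lower, with a median of 0.19. The summed level of 6 brown adipocyte markers was 152 to 199, 29.8 to 57.5, 456 to 485 and 99.1 to 130 in the same order of groups, with no Ucp1 read in the tSema4B unstimulated libraries and no Cox8b read in either tSema4B group. Of the 5 tested, 4 passed as lower in tSema4B in both states, while Ppargc1a was at 0.41 and 0.36 and did not pass. With NE in vector cells only Ucp1 passed, with means of 12.1 and 276, and the list median was -0.01. Cidea (52.2 and 51.4) and Cox7a1 (38.5 and 38.4) hardly moved there. Elovl3 had means of 45.7 and 92.3 in vector cells without and with NE. Its libraries did not overlap (32.8 to 69.5 and 71.4 to 106), but it did not pass. In tSema4B cells Ucp1 and Elovl3 passed as higher with NE. The sum of 8 preadipocyte and fibroblast markers was 21720 to 22000, 39020 to 45620, 16220 to 17940 and 33100 to 35700. Col1a2 and Col1a1 were the most abundant of them, with means of 12369 and 5737 in vector unstimulated. Of the 8, 6 passed as higher in tSema4B without stimulation and 7 after NE, with 0 lower, and Thy1 passed in neither state. With NE 4 passed as lower in each line, while Ly6a passed as higher (0.87 in vector and 1.07 in tSema4B cells). Macrophage markers summed to 24.6 at most, with no read of Ptprc or Adgre1 in any library, and endothelial markers to 21.9 at most, with no read of Kdr. Csf1r, the 1 macrophage marker tested, had at most 22 reads in a library. It was higher with NE in vector (2.43, limma adjusted p = 0.0289) and tSema4B cells (3.00, limma adjusted p = 0.0119). Mitochondrially encoded transcripts made up 13.4% to 16.7% of the reads in vector and 6.91% to 7.90% in tSema4B libraries. The part of these differences in the results on the 10 genes was not tested, and in bulk RNA fewer mature adipocytes and less RNA of a gene per cell cannot be told apart.

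NRF2 is kept low in unstressed cells by KEAP1, which presents it to a ubiquitin ligase. When oxidants or electrophiles modify KEAP1, NRF2 accumulates, pairs with a small MAF protein and binds antioxidant response elements beside genes of the same kind as those listed here. NRF2 is therefore controlled largely at the protein level, which RNAseq does not measure. Glutathione, the main thiol of the cell, is made from cysteine that enters as cystine, is consumed in the reduction of peroxides and is returned to its reduced form with NADPH, while the thioredoxin system runs beside it. Active brown adipocytes burn fatty acids at a high rate and generate mitochondrial oxidants.

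To show where an antioxidant response element could lie, RefSeq promoter sequences of the GRCm38.p6 build were searched on both strands, in windows of 300 bases that hold 250 bases before and 50 bases after a start site. A window was found for 7 of the 10 genes, with 9 windows in all, and none was read for Hmox1, Gclc and Gsr. The core letters TGACNNNGC occurred in 12.4% of all 32851 promoter windows, the related form TGAGNNNGC in 17.6% and either of them in 27.8%. The cyclic AMP response element TGACGTCA, which begins with TGAC like the first form, occurred in 1.79% of all windows and in none of the 9. The TGAG form and the cyclic AMP element were added after the first search had been seen. Shown are the 250 bases before the start site for 3 genes whose RNA moved after NE in vector cells, Gclm and Txnrd1, which rose, and Nqo1, which fell, and for Srxn1, which held the most matches. Each runs 5′ to 3′ on the strand of its gene, with matches to either form in capitals.

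Gclm, chr3:122245307-122245556, plus strand: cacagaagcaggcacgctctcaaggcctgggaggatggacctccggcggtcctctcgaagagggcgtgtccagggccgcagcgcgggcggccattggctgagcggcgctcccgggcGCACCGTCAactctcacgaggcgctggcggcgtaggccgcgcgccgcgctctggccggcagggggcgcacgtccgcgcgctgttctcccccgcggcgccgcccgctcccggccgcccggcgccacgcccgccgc

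Txnrd1, second of 3 start sites, chr10:82858956-82859205, plus strand: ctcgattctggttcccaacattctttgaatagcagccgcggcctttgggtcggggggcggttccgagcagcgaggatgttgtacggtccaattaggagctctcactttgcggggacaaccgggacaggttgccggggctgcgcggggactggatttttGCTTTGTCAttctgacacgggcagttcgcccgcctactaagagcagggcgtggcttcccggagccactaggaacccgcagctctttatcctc

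Nqo1, chr8:107403206-107403455, minus strand: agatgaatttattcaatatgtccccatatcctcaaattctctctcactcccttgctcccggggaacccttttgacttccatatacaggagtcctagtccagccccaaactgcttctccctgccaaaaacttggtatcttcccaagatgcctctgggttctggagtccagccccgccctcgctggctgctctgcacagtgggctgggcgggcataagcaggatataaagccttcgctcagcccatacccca

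Srxn1, chr2:152105274-152105523, plus strand: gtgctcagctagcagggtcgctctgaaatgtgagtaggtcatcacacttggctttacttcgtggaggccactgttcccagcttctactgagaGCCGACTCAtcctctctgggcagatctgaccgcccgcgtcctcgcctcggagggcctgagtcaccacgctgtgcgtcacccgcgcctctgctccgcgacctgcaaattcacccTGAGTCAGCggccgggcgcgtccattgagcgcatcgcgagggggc

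With positions counted from the start site as 0, the match in Gclm began at -134 and that in Txnrd1 at -92, both on the opposite strand. The Txnrd1 window lies inside the annotated gene, and the windows at its other 2 start sites held no match. Srxn1 had 3 matches, of which those at -158 and -45 are capitalized and the third lay at 28. Nfe2l2 had 1 match, TGACTCCGC, at -240, and Slc7a11 had 1, GCTTTCTCA, at -97 on the opposite strand. The windows of Nqo1 and Gpx3 held neither form, which says only that these letters were not in these bases. Genes with a match included some that passed a test, as Gclm and Txnrd1, and some that passed none, as Srxn1 and Slc7a11.

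Levels of different genes were compared as normalized read counts per kilobase of annotated exon, since a long transcript collects more reads. On this scale Nfe2l2 was the highest of the 10 genes in every group, with means from 171 in vector unstimulated to 223 in tSema4B NE, and Hmox1 was the second, with 124 to 157. Neither overlapped with its neighbour in the order in any group. Nqo1 and Txnrd1 followed in both unstimulated groups, at 72.9 and 66.3 in vector and 71.9 and 67.2 in tSema4B, and overlapped there, as did Gsr and Gclm behind them, at 57.7 and 56.8 in vector. In vector NE the order was different, because Gsr (105), Txnrd1 (97.5) and Gclm (82.9) stood above Nqo1 (43.7), with overlaps between Gsr and Txnrd1 and between Txnrd1 and Gclm. In tSema4B NE the order was Txnrd1 (74.2), Nqo1 (66.8), Gclm (51.7) and Gsr (51.1), and of these neighbours only the last 2 overlapped. Srxn1, with group means of 19.9 to 28.3, and Gclc, with 8.35 to 15.8, were lower in every group and overlapped with each other in tSema4B NE, and Gclc overlapped with Gpx3 in tSema4B unstimulated. Slc7a11 and Gpx3 were the lowest, with means of 5.32 or less, and overlapped with each other in 3 groups but not in vector unstimulated, where Gpx3 (4.30) lay above Slc7a11 (1.94).

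All comparisons of groups used limma on log2(normalized count + 1), a scale that understates changes of low genes, with two-sided tests whose p-values were adjusted by Benjamini-Hochberg across all 11998 tested genes. A gene is said to have passed when its adjusted p did not exceed 0.05, and to be called when its log2 fold change also reached 1 in size. Values of 1 gene in single libraries are normalized read counts, listed for replicates 1, 2 and 3. The comparison of tSema4B with vector after NE and that of NE with unstimulated in vector cells use the same 3 vector NE libraries, the libraries of each other group also enter 2 comparisons, and the results in them are therefore not independent.

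**Figure D1:**
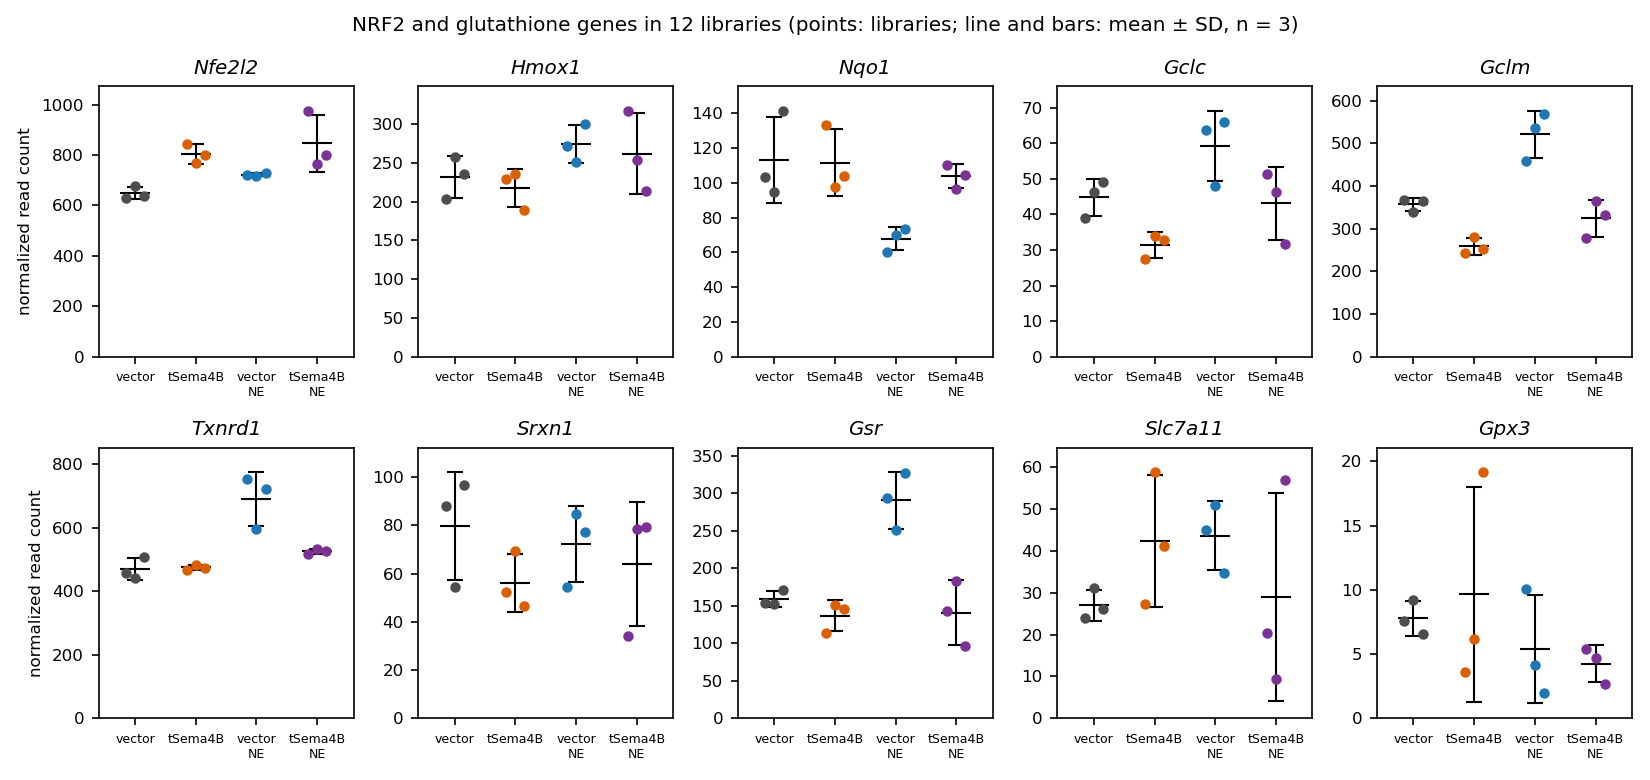
Normalized read counts (vertical axes, linear and starting at 0) of the 10 genes in the 4 groups. Points are the 3 libraries of a group in replicate order, and the horizontal line and bars are the mean ± SD. Gsr, Gclm and Txnrd1 stood highest and Nqo1 lowest in vector NE, where Gsr was 251 to 327 against 183 at most in every other library.

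Gsr encodes glutathione reductase, which uses NADPH to turn oxidized glutathione back into its reduced form. It had the widest range of group means of the 9 tested genes. The gene lies at chr8:33652523-33698163 on the plus strand of GRCm38. Its normalized counts were 153, 152 and 171 in vector unstimulated libraries and 293, 251 and 327 in vector NE libraries. In tSema4B cells they were 113, 152 and 145 without stimulation and 143, 183 and 96.5 after NE. The 3 vector NE libraries therefore stood above all the other 9, and the 2 tSema4B groups overlapped. In vector cells Gsr was 1.83-fold higher after NE (log2 fold change 0.86 ± 0.19 SE, limma adjusted p = 0.00511, n = 3 and 3). In tSema4B cells the log2 fold change with NE was 0.00 ± 0.19, with a 95% interval of -0.40 to 0.41 and an adjusted p of 0.994. After NE, Gsr was 2.06-fold lower in tSema4B than in vector cells (log2 fold change -1.08 ± 0.19, limma adjusted p = 0.000339). It was the only one of the 9 genes that was called in any comparison, and 5.76% of all genes tested were called in this one. Without stimulation the 3 tSema4B libraries were below all 3 vector libraries, with means of 137 and 159, but the log2 fold change of -0.22 ± 0.19 did not pass (adjusted p = 0.508). Without tSema4B NE replicate 3 or vector NE replicate 3 the difference after NE was -0.83 or -0.99, and with libraries rescaled to the same total or without Sema4b it was -0.99 or -0.90, so that Gsr passed in these 4 cases but was no longer called. The unstimulated value was -0.10 without tSema4B unstimulated replicate 1.

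By a fixed rule, the genes whose 4 centred group means were nearest to those of Gsr were looked up among 5804 tested genes with a mean of at least 100 normalized counts. The nearest were Hspe1, a mitochondrial chaperonin (Euclidean distance 0.06 on the log2 scale), Pop5, a subunit of ribonucleases P and MRP (0.06), and Gm12338 (0.06). The centred means of Gsr were -0.10, -0.33, 0.76 and -0.32 in unstimulated vector and tSema4B cells and in NE-treated vector and tSema4B cells, and those of Hspe1 were -0.15, -0.32, 0.79 and -0.33. Likeness was measured over 4 group means only.

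The synthesis of glutathione starts with glutamate-cysteine ligase, whose catalytic subunit is encoded by Gclc and whose modifier subunit, which raises the efficiency of the enzyme, is encoded by Gclm. Gclm was lower in tSema4B than in vector cells in both states and higher after NE in vector cells. It lies at chr3:122245557-122270732 on the plus strand and shares 296 of 6291 exon bases with Gm17494 on the opposite strand and Gm6061 on the same strand, so some of its reads could belong to them. Its counts were 367, 339 and 366 in vector unstimulated libraries and 243, 280.0 and 253 in tSema4B unstimulated libraries. After NE they were 460, 536 and 568 in vector and 279, 365 and 332 in tSema4B libraries. Every tSema4B library was below every vector library of the same state. The log2 fold change of tSema4B against vector was -0.47 ± 0.12 without stimulation (limma adjusted p = 0.0144) and -0.68 ± 0.12 after NE (limma adjusted p = 0.000421, 1.60-fold lower in tSema4B). NE raised Gclm 1.46-fold in vector cells (log2 fold change 0.54 ± 0.12, limma adjusted p = 0.00643), with no overlap between the groups. In tSema4B cells the log2 fold change with NE was 0.32 ± 0.12 (95% interval 0.06 to 0.58) and did not pass (adjusted p = 0.137), and the groups overlapped. The unstimulated difference no longer passed without vector unstimulated replicate 1 or tSema4B unstimulated replicate 1, or when the libraries were rescaled without Sema4b, with adjusted p of 0.0565 to 0.0598, and the NE response in vector cells no longer passed without vector NE replicate 3 (adjusted p = 0.0531).

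Gclc, at chr9:77754535-77794485 on the plus strand, had fewer reads, between 22 and 101 in a library. Its counts were 39.1, 46.2 and 49.0 in vector unstimulated, 27.4, 34.0 and 32.9 in tSema4B unstimulated, 63.8, 48.0 and 66.1 in vector NE and 51.5, 46.4 and 31.7 in tSema4B NE libraries. The unstimulated groups did not overlap and the other pairs did, and no comparison of Gclc passed. The log2 fold change of tSema4B against vector was -0.50 (95% interval -1.08 to 0.08) without stimulation and -0.46 (-1.04 to 0.12) after NE, and that of NE was 0.39 in vector and 0.42 in tSema4B cells. Both intervals between the lines included the corresponding Gclm value as well as 0, and the value after NE was -0.26 without tSema4B NE replicate 3.

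Slc7a11 encodes the cystine-importing subunit of the exchanger that supplies cysteine for glutathione. It lies at chr3:49892526-50443614 on the minus strand. Its counts were 23.9, 31.1 and 26.1 in vector unstimulated, 27.4, 58.8 and 41.1 in tSema4B unstimulated, 45.0, 51.0 and 34.7 in vector NE and 20.4, 9.47 and 56.8 in tSema4B NE libraries. The last group spread the most, since replicate 3 was the highest library of the group by far and replicate 2 rested on 10 reads. No comparison of Slc7a11 passed. After NE its log2 fold change in tSema4B against vector was -0.91 ± 0.45 (adjusted p = 0.164), and that of NE against unstimulated was 0.66 ± 0.45 in vector and -0.82 ± 0.45 in tSema4B cells. Without tSema4B NE replicate 3 the first became -1.56 (limma adjusted p = 0.01) and the last became -1.47 (limma adjusted p = 0.0357), and without replicate 2 they were -0.32 and -0.24, so that 1 library decided whether they passed.

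The thioredoxin arm was represented by Txnrd1, the cytosolic thioredoxin reductase, a selenoprotein that recharges thioredoxin with NADPH, and by Srxn1, sulfiredoxin, which repairs overoxidized peroxiredoxins. Txnrd1, at chr10:82833951-82897712 on the plus strand, was higher after NE in vector cells. Its counts were 458, 441 and 509 in vector unstimulated and 468, 484 and 475 in tSema4B unstimulated libraries. After NE they were 755, 595 and 723 in vector and 518, 533 and 527 in tSema4B libraries. The vector NE libraries stood above all others, and the tSema4B libraries were close to each other within each state. NE raised Txnrd1 1.47-fold in vector cells (log2 fold change 0.55 ± 0.11, limma adjusted p = 0.00137). In tSema4B cells the NE libraries were above the unstimulated ones as well, but the log2 fold change of 0.14 ± 0.11 did not pass (95% interval -0.07 to 0.36, adjusted p = 0.488). After NE Txnrd1 was 1.31-fold lower in tSema4B than in vector cells (log2 fold change -0.39 ± 0.11, limma adjusted p = 0.0112). Without stimulation the lines differed by 0.02 ± 0.11 on the log2 scale (95% interval -0.20 to 0.24, adjusted p = 0.926). The difference after NE did not pass without vector NE replicate 1 or 3 (-0.32 and -0.35) or with the libraries rescaled to the same total (-0.29) or without Sema4b (-0.21), with adjusted p of 0.0511 to 0.158.

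Srxn1, at chr2:152105516-152111376 on the plus strand, was measured by 32 to 143 reads in a library. Its counts ranged from 54.7 to 96.9 in vector unstimulated, 46.5 to 69.6 in tSema4B unstimulated, 54.4 to 84.8 in vector NE and 34.3 to 79.3 in tSema4B NE libraries, and all groups overlapped. No comparison passed, and the log2 fold changes lay between -0.48 and 0.11 with a standard error of 0.31. With 1 library left out the value between the unstimulated lines was -0.727 to -0.319.

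Nqo1 encodes NAD(P)H quinone dehydrogenase 1, which reduces quinones to hydroquinones, and is among the most used readouts of NRF2. With NE in vector cells it fell, while Gsr, Gclm and Txnrd1 rose. The gene lies at chr8:107388225-107403206 on the minus strand. Its counts were 103, 95.01 and 142 in vector unstimulated and 60.5, 69.9 and 73.3 in vector NE libraries. In tSema4B cells they were 133, 97.5 and 104 without stimulation and 110, 96.6 and 104 after NE. The 3 vector NE libraries were thus below all the other 9, and the remaining groups overlapped. In vector cells Nqo1 was 1.67-fold lower after NE (log2 fold change -0.71 ± 0.20, limma adjusted p = 0.0241). In tSema4B cells the log2 fold change with NE was -0.09 ± 0.20 (95% interval -0.51 to 0.33, adjusted p = 0.855). After NE it was 1.53-fold higher in tSema4B than in vector cells (log2 fold change 0.61 ± 0.20, limma adjusted p = 0.0363), and without stimulation the lines differed by -0.01 ± 0.20. Both adjusted p lay near the threshold. The fall in vector cells did not pass without vector unstimulated replicate 3 or any 1 of the vector NE libraries (adjusted p of 0.0538 to 0.148), and the difference after NE did not pass without any 1 of the 6 NE libraries (0.0508 to 0.131), with no filter on low values (0.0545), with libraries rescaled over nuclear genes (0.0567) or after thinning all libraries to the depth of the shallowest (0.0753).

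Nfe2l2, at chr2:75675513-75704641 on the minus strand, was 1.24-fold higher in tSema4B than in vector cells without stimulation. Its counts were 630, 676 and 639 in vector unstimulated and 845, 769 and 798 in tSema4B unstimulated libraries. After NE they were 720, 718 and 729 in vector and 976, 764 and 798 in tSema4B libraries. Every tSema4B library was above every vector library of its state. The log2 fold change of tSema4B against vector was 0.31 ± 0.10 without stimulation (limma adjusted p = 0.0374) and 0.22 ± 0.10 after NE, where it did not pass (adjusted p = 0.117). With NE the log2 fold change was 0.16 ± 0.10 in vector (adjusted p = 0.352) and 0.07 ± 0.10 in tSema4B cells (adjusted p = 0.774). The unstimulated difference did not pass without any 1 of 5 of the 6 libraries compared (the exception being tSema4B unstimulated replicate 2), with no filter on low values or with libraries rescaled over nuclear genes (adjusted p of 0.0609 to 0.147), and the difference after NE passed under 3 other scalings, at log2 fold changes of 0.28 to 0.40, while without tSema4B NE replicate 1 it was 0.11.

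Hmox1 encodes heme oxygenase 1, which opens heme to biliverdin, carbon monoxide and iron, and lies at chr8:75093621-75100589 on the plus strand. Its counts ranged from 203 to 257 in vector unstimulated, 189 to 235 in tSema4B unstimulated, 251 to 301 in vector NE and 214 to 317 in tSema4B NE libraries. The 2 groups of each comparison overlapped and no comparison passed. The log2 fold change with NE was 0.25 ± 0.15 in vector (95% interval -0.07 to 0.56, adjusted p = 0.354) and 0.25 ± 0.15 in tSema4B cells (-0.07 to 0.57, adjusted p = 0.383), and the lines differed by -0.09 without stimulation (-0.41 to 0.23) and by -0.08 after NE (-0.40 to 0.23). With 1 library left out the value with NE was 0.154 to 0.324 in vector and 0.105 to 0.388 in tSema4B cells.

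Gpx3 encodes the secreted, plasma type glutathione peroxidase, a selenoprotein, and lies at chr11:54902453-54910377 on the plus strand. Between 2 and 15 of its reads were found in a library, and it failed the filter of 10 normalized counts in at least 3 libraries. Its normalized counts ranged from 6.53 to 9.25 in vector unstimulated, 3.58 to 19.2 in tSema4B unstimulated, 1.96 to 10.1 in vector NE and 2.64 to 5.36 in tSema4B NE libraries. Fitted with no filter on low values, none of its differences passed, with adjusted p from 0.709 to 1. The 95% intervals reached from -2.32 to 1.54 over the 4 comparisons, and each of them included 0 and a fall of more than 2-fold.

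**Figure D2:**
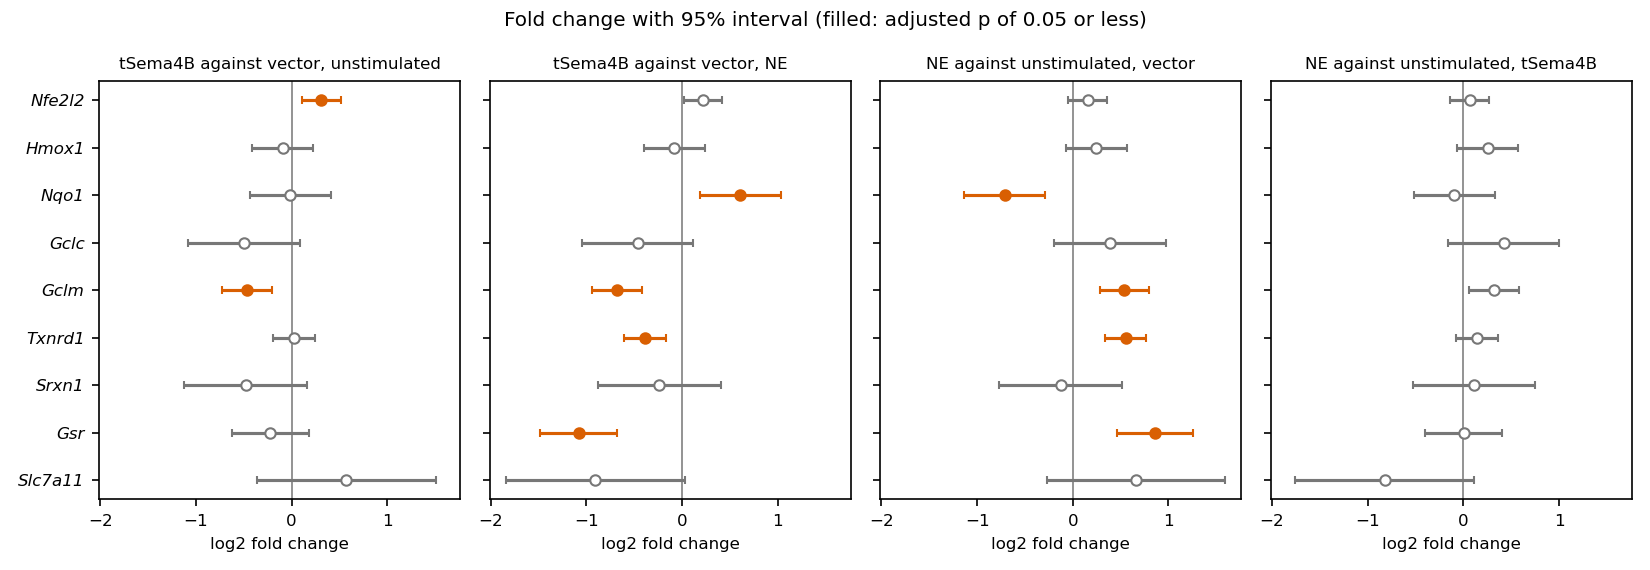
Log2 fold changes (horizontal axes) of the 9 tested genes in the 4 comparisons, with 95% intervals. Filled points passed at an adjusted p of 0.05 or less: 2 without stimulation and 4 after NE in tSema4B against vector, 4 with NE in vector and 0 with NE in tSema4B cells.

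Counted together, 1 of the 9 genes (Nfe2l2) was higher and 1 (Gclm) lower in tSema4B than in vector cells without stimulation, against 5.64% of all genes tested that were higher and 7.39% that were lower. No gene of the 9 was called, against 3.82% of all. Their median log2 fold change was -0.09, beside 0.00 over all genes. After NE 1 gene (Nqo1) was higher and 3 (Gsr, Gclm and Txnrd1) were lower, against 9.79% and 11.2% of all genes, and 1 was called against 5.76%. The median was -0.39, beside -0.01 over all genes. With NE in vector cells 3 genes (Gsr, Txnrd1 and Gclm) were higher and 1 (Nqo1) lower, against 6.82% and 4.78% of all genes, and none was called against 2.63%. The median there was 0.39, beside -0.02. The split of all genes moved with the scaling. Of the genes that passed, 43.3% were higher in tSema4B without stimulation, 46.7% after NE and 58.8% with NE in vector cells, and other scalings gave 27.8% to 64.6%, 38.2% to 72.6% and 45.2% to 55.1%.

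In tSema4B cells 0 of the 9 genes passed with NE by limma, by edgeR or by DESeq2, and 1, Gclm, had an unadjusted p under 0.05, against 19.9% of all genes. Over all genes 3.68% were higher, 2.58% lower and 2.07% called in that comparison. The median log2 fold change of the 9 genes was 0.11, beside 0.00. Whether the NE response itself differed between the lines was tested as the interaction, which 0 of the 9 genes passed by any of the 3 tools, against 0.025% of all genes by limma, namely 3. At an unadjusted p under 0.05 there were 4, against 10.2% of all genes. Their limma values were -0.86 ± 0.27 for Gsr (unadjusted p = 0.00493, adjusted p = 0.255), -0.41 ± 0.15 for Txnrd1 (0.012, adjusted 0.326), -1.48 ± 0.64 for Slc7a11 (0.0294, adjusted 0.405) and 0.62 ± 0.29 for Nqo1 (0.0421, adjusted 0.464). The value of Slc7a11 was -0.90 without tSema4B NE replicate 2 and reached -2.13 without replicate 3 of that group. The passing of 4 genes in vector cells and of none in tSema4B cells is therefore not shown to be a difference between the lines.

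**Figure D3:**
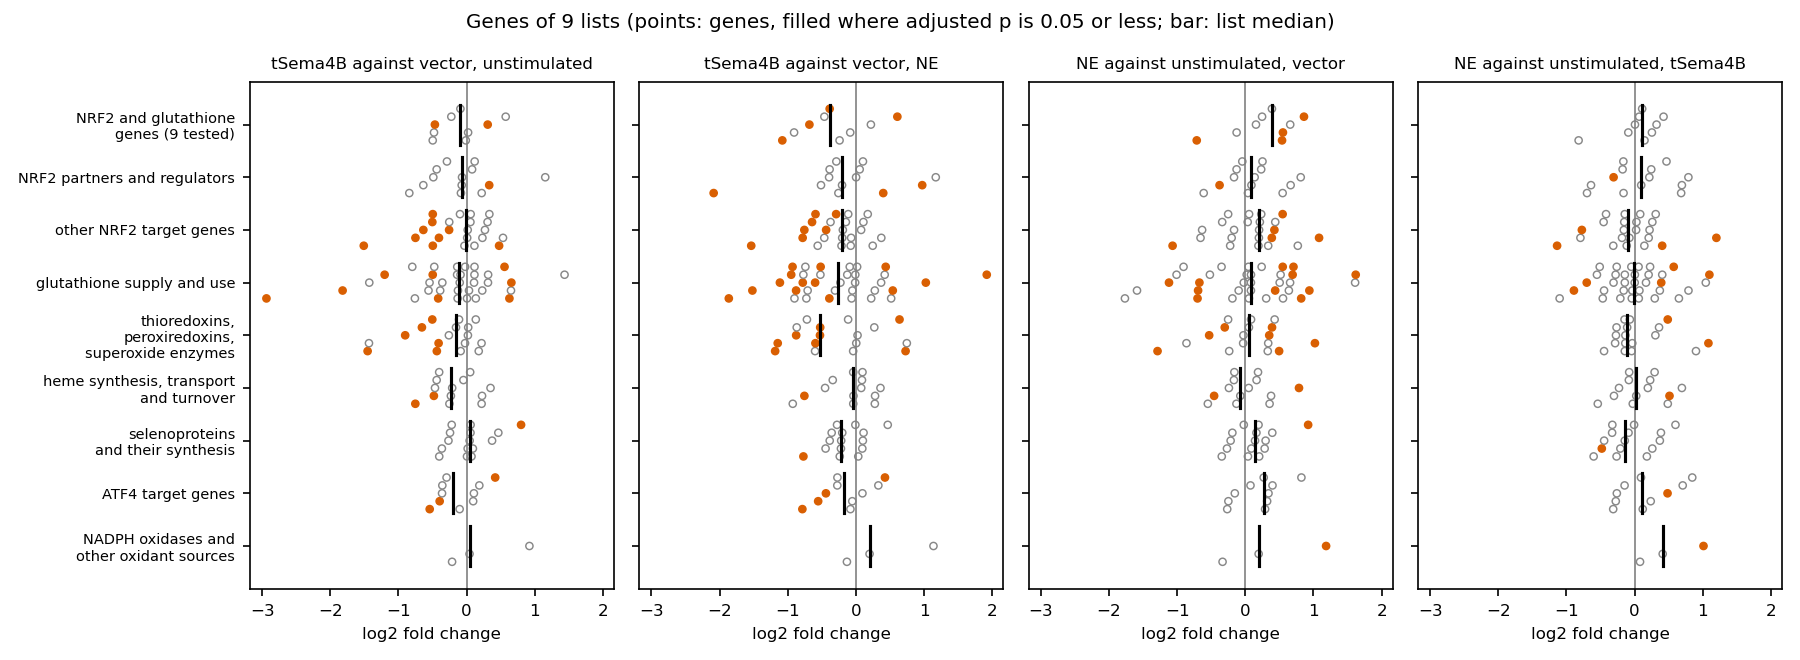
Log2 fold changes (horizontal axes) of the tested genes of 9 lists in the 4 comparisons. Each point is a gene, filled where its adjusted p was 0.05 or less, and the black bar is the median of the list. Taldo1 at -1.51 and -1.54 is the lowest of the other NRF2 target genes in tSema4B against vector in the 2 states.

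The wider NRF2 and redox network was read from lists of genes that share no member with the 10. Their counts stand beside the shares of all genes that passed, which were 5.64% higher and 7.39% lower between the unstimulated lines, 9.79% and 11.2% after NE, 6.82% and 4.78% with NE in vector and 3.68% and 2.58% with NE in tSema4B cells. Of 13 genes for partners and regulators of NRF2, 1 was higher and 0 lower in tSema4B than in vector cells without stimulation, and 2 were higher and 1 lower after NE, where the shares of all genes were 9.79% and 11.2%. A single gene of 13 lies near these shares. Sqstm1, whose protein p62 binds KEAP1, was higher in tSema4B cells in both states, with log2 fold changes of 0.33 ± 0.07 (limma adjusted p = 0.00156) and 0.40 ± 0.07 (limma adjusted p = 0.000174). Its log2 fold change with NE was -0.38 in vector and -0.31 in tSema4B cells (limma adjusted p = 0.000725 and 0.00611). After NE Btrc, a substrate receptor of a ubiquitin ligase that can act on NRF2, was higher in tSema4B (0.97). Nfe2l3, a relative of NRF2 with at most 26 reads in a library, was lower in tSema4B after NE (-2.09 ± 0.72), near the threshold (limma adjusted p = 0.0418). The list medians in the order of the comparisons (tSema4B without stimulation and after NE, then NE in vector and in tSema4B cells) were -0.07, -0.20, 0.09 and 0.10, beside all-gene medians of 0.00, -0.01, -0.02 and 0.00.

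Of 22 other NRF2 target genes 1 was higher and 8 lower in tSema4B without stimulation, and 0 were higher and 7 lower after NE, beside 5.64% and 7.39% of all genes in the first and 9.79% and 11.2% in the second comparison. Taldo1, transaldolase of the pentose phosphate pathway, was the most changed, at -1.51 ± 0.15 and -1.54 ± 0.15 (limma adjusted p = 2.25e-07 and 1.96e-07). Its means were 663 and 237 normalized counts in vector and tSema4B without stimulation and 781 and 269 after NE. Also lower in both states were Me1, cytosolic malic enzyme (-0.75 and -0.64), Tkt, transketolase (-0.63 and -0.59), and Cbr1, a carbonyl reductase (-0.50 and -0.76). Pgd and G6pdx, the NADPH-producing dehydrogenases of the pentose phosphate pathway, passed as lower without stimulation at -0.50 each. After NE they were at -0.15 (limma adjusted p = 0.317) and -0.07 (0.709) and did not pass, and Pgd was higher with NE in tSema4B cells (0.40, limma adjusted p = 0.015). The 1 gene that was higher without stimulation was Fth1, ferritin heavy chain (0.48). Blvrb, biliverdin reductase B, was lower after NE (-0.78). With NE 4 of the 22 were higher and 1 lower in vector cells, and 2 were higher and 2 lower in tSema4B cells. Ugdh, which makes UDP-glucuronate, rose by 1.08 in vector and 1.20 in tSema4B cells, and Slc40a1, the iron exporter ferroportin, fell, at -1.07 and -0.77. Ephx1, microsomal epoxide hydrolase, fell in tSema4B cells (-1.14, limma adjusted p = 0.00265). In vector cells Txn1, thioredoxin, rose by 0.55 and Fth1 by 0.43. In the same order of comparisons the list medians were -0.01, -0.21, 0.20 and -0.10.

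Of 40 genes for the supply and use of glutathione 34 were tested. Without stimulation 3 were higher and 5 lower in tSema4B, and after NE 4 were higher and 10 lower, beside 5.64% and 7.39%, then 9.79% and 11.2%, of all genes. The microsomal glutathione transferases Mgst3 and Mgst1 were lower in both states, Mgst3 at -1.82 and -1.87 and Mgst1 at -1.20 and -1.52. Gpx8, an endoplasmic reticulum peroxidase, was higher in both states (0.66 and 0.54). Gstm4, with at most 24 reads in a library, was lower without stimulation (-2.94). After NE Glrx5, a mitochondrial glutaredoxin, was lower (-1.12) and Cbs, of the route from methionine to cysteine, was higher (1.92, at most 17 reads). With NE 7 were higher and 4 lower in vector cells and 3 were higher and 2 lower in tSema4B cells. Gsto1, an omega-class transferase, rose in both lines, by 0.94 and 1.10, and Gstm1 fell in both, at -0.70 each. Ggct and Glrx5 rose in vector cells, by 1.62 and 0.82, while Ggt7 fell by 1.12 there. The list medians were -0.11, -0.27, 0.08 and -0.02.

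Of 17 thioredoxins, peroxiredoxins and superoxide enzymes 0 were higher and 6 lower in tSema4B without stimulation, and 2 were higher and 6 lower after NE, beside the same shares of all genes (5.64% and 7.39%, then 9.79% and 11.2%). Cat, catalase, was lower, at -1.45 and -1.19, with means of 3161 and 1151 without stimulation and 2561 and 1124 after NE. Msra, a methionine sulfoxide reductase (-0.90 and -1.15), and Sod1, cytosolic superoxide dismutase (-0.50 and -0.88), were also lower. Sod2, the mitochondrial superoxide dismutase, rose with NE by 1.02 in vector and by 1.08 in tSema4B cells and was lower in tSema4B in both states (-0.66 and -0.59). Sesn3, a sestrin, fell by 1.29 with NE in vector cells and was higher in tSema4B after NE (0.73). With NE 4 of the 17 were higher and 3 lower in vector cells, and 2 were higher and 0 lower in tSema4B cells. The list medians were -0.16, -0.52, 0.05 and -0.11.

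Of the genes for heme synthesis, transport and turnover, Tfrc, the transferrin receptor, was lower in tSema4B cells in both states, at -0.48 without stimulation and -0.76 after NE. Tfrc rose with NE by 0.79 in vector and 0.51 in tSema4B cells, and Fech, which inserts iron into heme, fell by 0.46 in vector cells. Of 17 genes for selenoproteins and their synthesis 16 were found and 15 tested, and Sephs2, which makes the selenium donor, rose with NE in vector cells by 0.92 and was lower in tSema4B after NE (-0.77). Selenom (0.80, tSema4B without stimulation, limma adjusted p = 0.042) and Selenop (-0.48, NE in tSema4B cells) were the other 2 that passed. Of 10 genes of the ATF4 list, a group induced by amino acid and other stress, 1 was higher and 2 lower in tSema4B without stimulation and 1 was higher and 3 lower after NE, where 9.79% and 11.2% of all genes were, so that the 1 higher gene of 10 is near the share of all genes. Psat1 and Phgdh, which make serine, were lower in both states (-0.40 and -0.79, and -0.54 and -0.55), Atf4 was lower after NE (-0.44) and Vldlr was higher in both (0.42 and 0.43). With NE 0 of them passed in vector cells, and 1, Ddit4, was higher in tSema4B cells (0.48). Of 8 genes for NADPH oxidases and other oxidant sources 3 were tested, and Xdh, xanthine dehydrogenase, rose with NE by 1.19 in vector and 1.01 in tSema4B cells, where its means were 406 and 416 before and 924 and 839 after. None of the 3 passed between the lines. The medians of the heme list were -0.23, -0.04, -0.07 and 0.02, those of the selenoprotein list 0.04, -0.22, 0.14 and -0.14, those of the ATF4 list -0.20, -0.18, 0.28 and 0.11, and those of the oxidant list 0.04, 0.20, 0.20 and 0.41. No gene of these lists passed the interaction test.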

How the data were processed

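RNAseq libraries were prepared by SMART-Seq2 and Nextera XT and sequenced as single-end reads. The authors screened the reads with FastQ Screen, aligned them to the mouse genome (mm10, GRCm38.p4) with STAR 2.7.9a, assigned reads to genes by htseq-count and normalized by DESeq2. The deposited signal is the resulting count of reads for each gene after division by a factor per library. The annotation and strand setting are not given in the sources used here. In every library 100% of the values were whole multiples of 1 read within a tolerance of 0.01, and these whole reads entered edgeR 4.0.16 and DESeq2 1.42.0 as alternatives.

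The main test was limma 3.58.1 in R 4.3.3, with a trend on abundance, on log2(normalized count + 1), with 1 model of the 4 groups, for the 11998 genes that reached 10 normalized counts in 3 libraries or more. Other filters, pseudocounts, scalings and left-out libraries were tried as alternatives. The fits were also run on simulated data, whose results are not given and support no statement here. Exon lengths and gene positions came from GENCODE on GRCm38. The named genes are the 10 members and, of each other list and comparison, at most 4 of the genes that passed with the largest change, and Pgd and G6pdx were added after their values were seen. Some marker genes were also named after their values were seen, whether or not they passed. The members and lists were chosen with earlier results of these data known. Replicate numbers did not pair libraries. One gene of the lists is not reported here. The table also has 4 rows whose names are not unique.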

Additional observations from a re-analysis of the deposited data

Results flagged for a closer look

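Lpl, which encodes lipoprotein lipase and served here only as an adipocyte marker, was 1 of the 3 genes whose response to NE differed between the lines by the interaction test, at 0.82 ± 0.11 on the log2 scale (limma adjusted p = 0.00399). With no filter on low values it did not pass, as 0 genes did. Its means were 7222 and 8355 normalized counts in vector cells without and with NE, and 1902 and 3887 in tSema4B cells.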

How the results depend on the processing

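The 45 fold changes of the 9 tested genes were refitted under 19 alternatives each (24 for the interaction), left-out libraries included. Fold changes of the genes of the other lists were not read under these alternatives. Of 190 refits of the 10 fold changes that passed, 162 passed again, 28 did not and none changed sign. Gsr in vector cells with NE and between the lines after NE, Gclm between the lines after NE and Txnrd1 with NE in vector cells passed in all 19. Rescaling without Sema4b, added after seeing the data, as was thinning to the shallowest library, moved the all-gene median between the lines to 0.104 without stimulation and 0.165 after NE. Gclc, Slc7a11, Srxn1 and Gpx3 rest on few reads, and whether depth limits them was not tested. Causes were not tested.

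Of the 2 genes that passed between the unstimulated lines, 1 passed with no filter on low values (Gclm), 1 with rescaling over nuclear genes (Gclm) and 1 without Sema4b (Nfe2l2). The interaction passed for 0 of all genes with no filter, 101 by DESeq2 and 5 after thinning, and NE in tSema4B cells for 382 with only the 6 libraries compared.

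Some fold changes that did not pass changed sign. Between the unstimulated lines Nqo1 became 0.0132 with libraries rescaled to the same total, 0.0966 without Sema4b and 0.0166 after thinning, Hmox1 became 0.0182 without Sema4b and Txnrd1 became -0.0653 with rescaling over nuclear genes. After NE Hmox1 between the lines became 0.0107, 0.0938 and 0.0489 with the same total, without Sema4b and after thinning.

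Leaving out 1 library gave 0 to 2 of the 9 genes between the unstimulated lines, 2 to 4 after NE, 2 to 4 with NE in vector and 0 to 1 with NE in tSema4B cells. All genes that passed with NE in vector cells numbered 750 (without vector NE replicate 3) to 988, against 1392, and the interaction passed for 1 gene without any 1 of 6 libraries (vector unstimulated replicate 1 or 2, tSema4B unstimulated replicate 3 or any vector NE library), for 12 without tSema4B NE replicate 1 and for 31 without tSema4B unstimulated replicate 2, against 3. Fold changes between the unstimulated lines ranged from -0.183 to 0.00728 for Hmox1, -0.146 to 0.159 for Nqo1 and -0.0209 to 0.0811 for Txnrd1, and after NE from -0.232 to 0.051 for Hmox1 and -0.44 to 0.152 for Srxn1. With NE Srxn1 ranged from -0.376 to 0.0604 in vector cells. In tSema4B cells Nfe2l2 ranged from -0.0409 to 0.135, Nqo1 from -0.184 to 0.0413, Srxn1 from -0.0893 to 0.503 and Gsr from -0.207 to 0.25. The interaction ranged from -0.141 to 0.142 for Hmox1 and -0.109 to 0.236 for Gclc.

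Replicate numbers were shared between groups, but over 18 pairs the correlation of deviations lay between -0.047 and 0.0282. With the replicate block 1504, 2439, 1323 and 712 genes passed in the 4 comparisons and 3 the interaction, and the 9 genes again gave 2, 4, 4, 0 and 0.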
